A study of Homo sapiens with 5 samples.

Results

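The miR-17-92 and miR-106a-363 clusters were followed through 7 of the 734 miRNA probes of a NanoString panel, in Caco2 cells that carried an shRNA against PLEKHA7 or a non-target shRNA. The deposited table names them hsa-miR-106a+hsa-miR-17, hsa-miR-20a+hsa-miR-20b, hsa-miR-18a, hsa-miR-18b, hsa-miR-19a, hsa-miR-19b and hsa-miR-92a, the first pair being joint probes. They were taken by name and not by a measured value. Caco2 is an epithelial line from a human colorectal tumour, and PLEKHA7 is a component of adherens junctions. Knockdown cells (shPLEKHA7, n = 3, replicates 1, 2 and 3) were set against cells with the non-target shRNA (NT, n = 2, replicates 1 and 3). Cells of both groups had been transduced and selected, and per the series' description the RNA came from separate sets of infections. Groups followed the sample titles. The source field of shPLEKHA7 replicates 2 and 3 names another PLEKHA number, and results without both are given below.

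Both clusters are polycistronic: each is transcribed as 1 primary RNA from which Drosha cuts several hairpins, which Dicer then cuts further. miR-17-92 is activated by the transcription factor MYC and is known as an oncogenic cluster that is often raised in colorectal tumours, while miR-106a-363 is its paralog on the X chromosome. The products fall into seed families, and miRNAs with the same seed pair with largely the same target mRNAs. Targets known for the miR-17 family include cell cycle and TGF-beta pathway genes.

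In RefSeq annotation of GRCh38.p14 the hairpins of miR-17-92 lie at chr13:91350605-91351391 on the plus strand, within the gene MIR17HG and over 787 bases. Those of miR-106a-363 lie at chrX:134169378-134170278 on the minus strand, within MIR106AHG and over 901 bases. The deposited tables themselves carry no coordinates. The mature sequences below, from RefSeq, are shown because they decide what each probe can tell apart. Each runs 5′ to 3′ with its seed, bases 2 to 8, in capitals.
miR-17 (chr13:91350618-91350640, plus): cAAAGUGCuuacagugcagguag
miR-106a (chrX:134170244-134170266, minus): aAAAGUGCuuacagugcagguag
miR-20a (chr13:91351072-91351094, plus): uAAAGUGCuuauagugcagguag
miR-20b (chrX:134169850-134169872, minus): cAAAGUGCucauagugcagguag
miR-18a (chr13:91350756-91350778, plus): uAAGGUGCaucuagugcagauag
miR-18b (chrX:134170084-134170106, minus): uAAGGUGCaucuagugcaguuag
miR-19a (chr13:91350939-91350961, plus): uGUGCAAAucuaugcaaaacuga
miR-19b (chr13:91351245-91351267, plus, and chrX:134169683-134169705, minus): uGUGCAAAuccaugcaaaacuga
miR-92a (chr13:91351361-91351382, plus, and chrX:134169544-134169565, minus): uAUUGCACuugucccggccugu

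The 9 mature miRNAs thus form 4 seed families. miR-17, miR-106a, miR-20a and miR-20b share 1 seed, miR-18a and miR-18b share another, miR-19a and miR-19b have their own, and miR-92a stands alone among them. With positions counted from 1 at the 5′ end and the first-named miRNA's base given first, miR-17 and miR-106a differ by C1A, and miR-20a and miR-20b by U1C and U10C. The panel reads each of these pairs with 1 joint probe, whose target sequence in the deposited table is that of miR-106a and of miR-20a. miR-18a and miR-18b differ by A20U and miR-19a and miR-19b by U11C, and these have a probe each. Whether such a probe also counts the other miRNA of its pair was not tested. Because miR-19b and miR-92a have a copy in both clusters, only the probes for miR-18a and miR-19a are named for miR-17-92 alone, and only that for miR-18b for miR-106a-363 alone.

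Total miRNA counts were 32138 to 58298 in shPLEKHA7 lanes and 34942 and 50372 in NT lanes. Counts of spiked-in positive controls ran from 10670 to 14239 in shPLEKHA7 lanes and were 7686 and 10656 in NT lanes, so these groups did not overlap, and their part in the results was not tested. The numbers that end the deposited column names are 4, 5 and 6 for shPLEKHA7 and 1 and 3 for NT. If they mark lane order, lane order and group cannot be told apart. Intestinal and epithelial miRNAs (miR-192, miR-194, miR-215, miR-200c and miR-141) summed to 1154 to 2312 raw counts in shPLEKHA7 lanes and to 1316 and 1801 in NT lanes. Of these 5, miR-215 was called higher, with normalized counts of 28.3, 30.2 and 45.4 in shPLEKHA7 lanes, against 13.9 and 16.0 in NT lanes (log2 1.22, SE 0.31, edgeR adjusted p = 0.048), and the other 4 were not called. Neither NT count of miR-215 exceeded its lane's limit of detection, which was set by the negative controls. The probe thus entered the test through the shPLEKHA7 lanes alone, and its fold change is over a background level. The part of miR-215 in the results was not tested. Blood markers (miR-223, miR-142-3p and miR-451) summed to 55 to 90 in shPLEKHA7 lanes and to 54 and 78 in NT lanes. Stromal markers (miR-143 and miR-145) summed to 23 to 37 in shPLEKHA7 lanes and to 21 and 22 in NT lanes.

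The 7 probes together held a large part of all miRNA counts, a share that also depends on the counts of all other probes. In RNA from whole cultures a change in the cells present and a change in miRNA per cell cannot be told apart. Their share was 20.6%, 19.8% and 18.8% in shPLEKHA7 replicates 1, 2 and 3, against 17.8% and 14.4% in NT replicates 1 and 3. The lowest shPLEKHA7 lane and the highest NT lane had exact binomial 95% intervals, which cover counting error only, of 18.5% to 19.1% and of 17.4% to 18.2%. The group means were 19.7 ± 0.9% in shPLEKHA7 and 16.1 ± 2.4% in NT (SD, n = 3 and 2), a difference of 3.64 percentage points. Its size rested on the NT lanes, being 5.32 points when NT replicate 1 was left out and 1.96 points when NT replicate 3 was. These counts include background. With the mean of the negative controls subtracted, the group means were 22.0% in shPLEKHA7 and 17.6% in NT, a difference of 4.38 points.

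miR-92a, miR-20a with miR-20b, and miR-19b made up 96.9% to 97.2% of the cluster counts in shPLEKHA7 lanes and 97.3% and 97.4% in NT lanes. By raw count miR-92a ranked 1, 1 and 2 on the panel in shPLEKHA7 replicates 1, 2 and 3, and 1 and 3 in NT replicates 1 and 3. The joint miR-20a/miR-20b probe ranked 4, 3 and 3 in shPLEKHA7 lanes and 7 and 8 in NT lanes. At the other end miR-18b ranked 135, 163 and 119 in shPLEKHA7 lanes and 172 and 188 in NT lanes. The joint miR-106a/miR-17 probe was counted far less than the joint miR-20a/miR-20b probe, although their genes lie in the same 2 clusters: the miR-20 probe had 21.6 to 24.1 times as many counts in shPLEKHA7 lanes and 16.7 and 23.8 times as many in NT lanes. How efficiently each probe captures its target is not given in the sources used here, so levels of different probes are not compared beyond their counts.

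**Figure D1:**
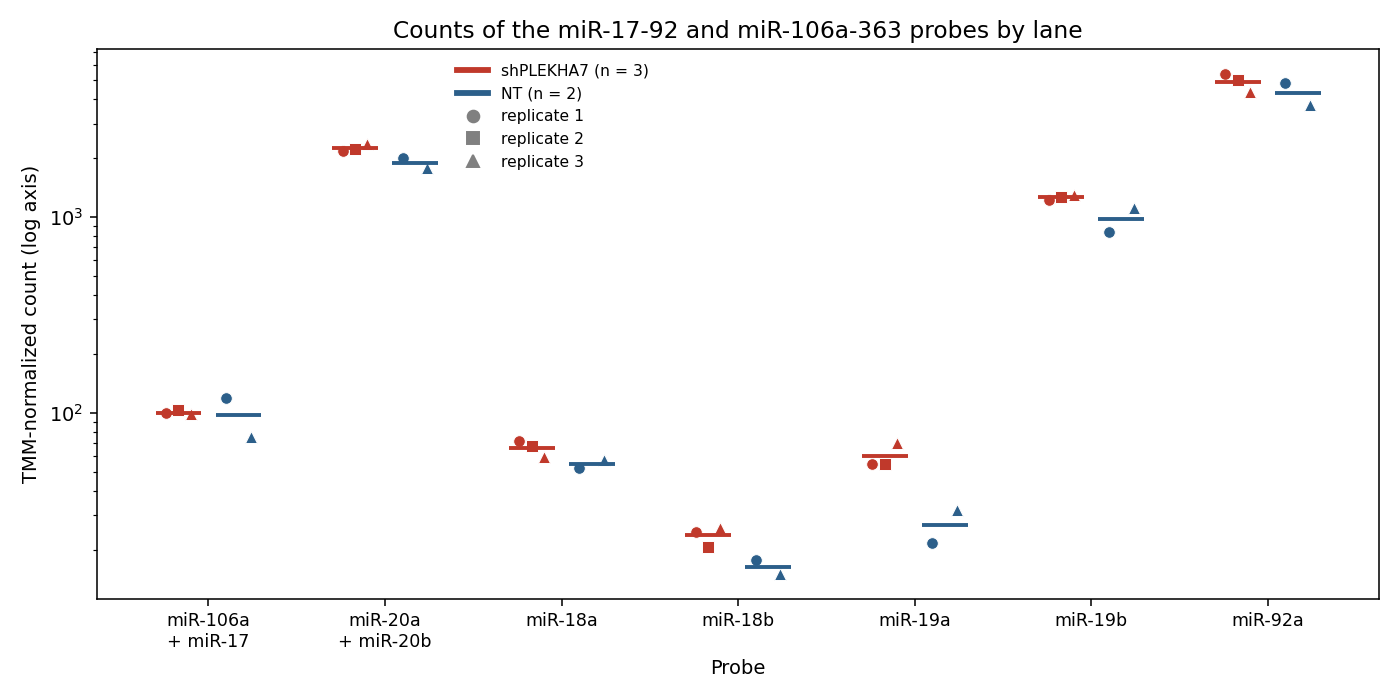
TMM-normalized counts (log axis) of the 7 probes, with shPLEKHA7 lanes (red, n = 3) left of NT lanes (blue, n = 2); symbols give the replicate and bars the group mean. miR-19a has the widest gap between groups (54.7 to 70.3 against 21.5 and 32.0), and the NT points lie farthest apart for miR-106a with miR-17 (119 and 75.2), on both sides of the shPLEKHA7 points.

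Of the 7 probes, 1 rose in shPLEKHA7 cells, miR-19a, and 0 fell. The test was edgeR's quasi-likelihood test over the 204 probes above background in at least 2 lanes, with Benjamini-Hochberg adjustment and a threshold of 0.05. Over all 204 probes 5 (2.45%) were higher and 8 (3.92%) lower. In 5 of the 7 the normalized counts of the groups did not overlap, all higher in shPLEKHA7, and over all probes 53 (26.0%) were apart in that direction. All 7 fold changes were above 0, as were 115 of all 204. The median of the 7 was log2 0.27, against a median of 0.06 over all probes tested. The members share lanes and in part a transcript, so they are not independent. The panel gives no level for PLEKHA7 itself.

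The miR-19 family, whose seed is GUGCAAA, held the called probe. miR-19a had raw counts of 60, 40 and 93 in shPLEKHA7 replicates 1, 2 and 3, against 17 and 34 in NT replicates 1 and 3. All 5 counts exceeded the limit of detection of their lane, which ran from 11.0 to 24.5 counts in the shPLEKHA7 lanes and was 13.4 and 20.6 in the NT lanes, though the lower NT count did so by few counts. Normalized, the counts were 54.7, 55.0 and 70.3 in shPLEKHA7 and 21.5 and 32.0 in NT, with no overlap.
The mean was 60.0 ± 8.9 in shPLEKHA7 and 26.8 ± 7.4 in NT (SD), a 2.22-fold rise (log2 1.15, SE 0.24, edgeR adjusted p = 0.0283). The direction held with each lane left out in turn, but the call did not: the edgeR adjusted p was 0.151 without NT replicate 1, 0.0627 without NT replicate 3 (in each case with a lone NT lane assumed to vary like the shPLEKHA7 lanes) and 0.0655 without shPLEKHA7 replicate 3. Without both shPLEKHA7 replicates 2 and 3 it was 0.0646 at log2 1.02, with the lone shPLEKHA7 lane assumed to vary like the NT lanes.

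miR-19b, which differs from miR-19a by U11C outside the seed, was counted 1338, 924 and 1712 times in shPLEKHA7 lanes, against 660 and 1189 in NT lanes. Normalized counts were 1220, 1269 and 1294 in shPLEKHA7, and 837 and 1118 in NT. The shPLEKHA7 lanes were close together and above both NT lanes, of which replicate 1 was much the lower. The fold change was log2 0.37 (SE 0.15, edgeR adjusted p = 0.162), which did not pass the test, and it ran from 0.18 (NT replicate 1 left out) to 0.63 (NT replicate 3 left out).

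The comparison of the miR-19 pair does not depend on how lanes are scaled, since both counts come from the same lane. miR-19a made up 4.29%, 4.15% and 5.15% of the summed miR-19a and miR-19b count in shPLEKHA7 replicates 1, 2 and 3, against 2.51% and 2.78% in NT replicates 1 and 3. The exact binomial 95% intervals were 3.29% to 5.49%, 2.98% to 5.61% and 4.18% to 6.28% in shPLEKHA7, and 1.47% to 3.99% and 1.93% to 3.86% in NT. The groups did not overlap, but only the interval of shPLEKHA7 replicate 3 cleared both NT intervals. In log2 terms the miR-19a to miR-19b ratio averaged -4.40 ± 0.18 in shPLEKHA7 and -5.20 ± 0.11 in NT (SD), a difference of 0.80. Its 2-sided exact permutation p was 0.1, the smallest that the 10 splits of these lanes can give, and the adjusted p over the 8 ratios examined was 0.4 (exact permutation). The difference ran from 0.70 to 0.88 with 1 lane left out, and was 1.10 after the mean of the negative controls had been subtracted.

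**Figure D2:**
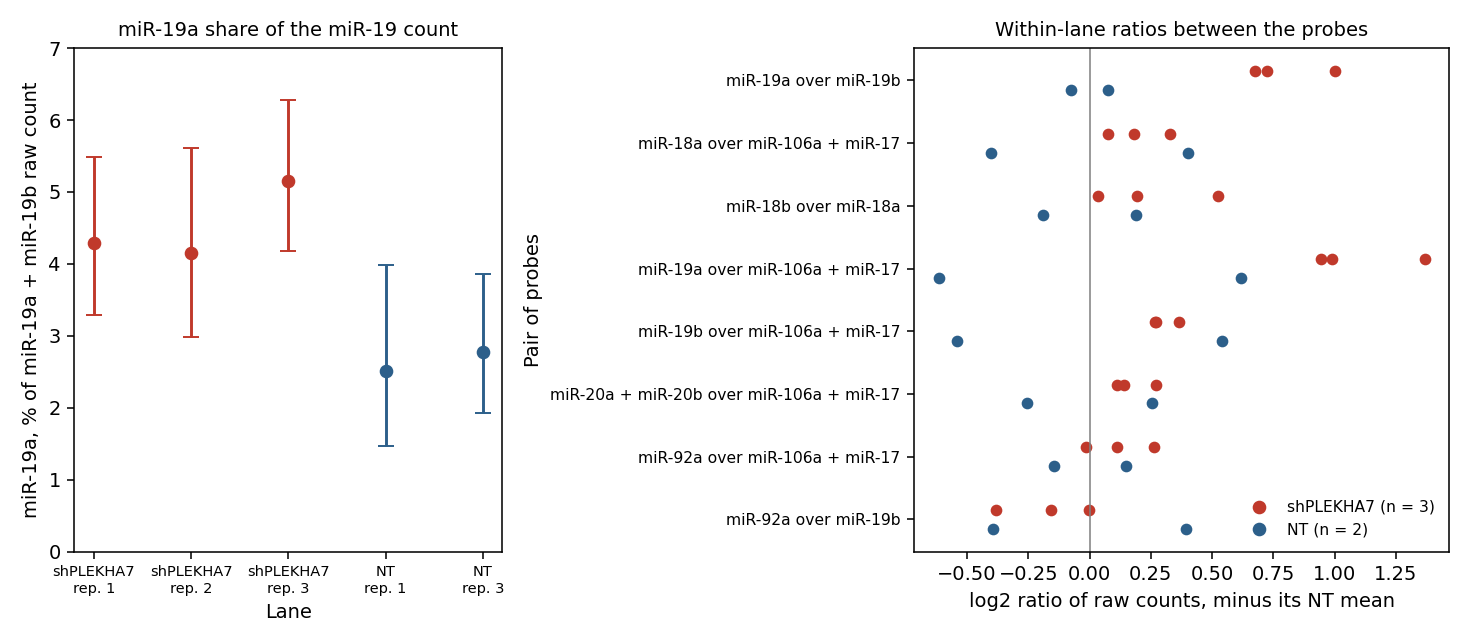
Left, miR-19a as a percent of the miR-19a plus miR-19b raw count in each lane, with exact binomial 95% intervals; right, 8 log2 ratios between cluster probes, each point a lane, minus the NT mean of that ratio. shPLEKHA7 lanes (red) lie apart from NT lanes (blue) in the ratios of miR-19a to miR-19b and to miR-106a with miR-17, and the groups overlap in the other 6.

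Of the other ratios, that of miR-19a to the joint miR-106a/miR-17 probe was also apart, at log2 -0.75 ± 0.23 in shPLEKHA7 and -1.85 ± 0.87 in NT (difference 1.10, 2-sided exact permutation p = 0.1, adjusted p = 0.4). Its size rested on the NT lanes, being 0.48 without NT replicate 1 and 1.72 without NT replicate 3. The other 6 ratios overlapped between groups, with differences from -0.18 to 0.30 and exact permutation p from 0.4 to 0.8. For 5 of these 6 the sign of the difference turned when NT replicate 1 was left out, the ratio of miR-18b to miR-18a being the other. The difference for miR-19b over the joint miR-106a/miR-17 probe was then -0.24, against 0.84 without NT replicate 3, and that for miR-18a over the same probe was -0.21, against 0.60. The NT lanes differed in these ratios more than the shPLEKHA7 lanes did: miR-19b to miR-106a with miR-17 had an SD of 0.76 in NT and 0.06 in shPLEKHA7 (log2). NT replicate 1 had 7.02 counts of miR-19b for each count of that joint probe and NT replicate 3 had 14.9, whereas the shPLEKHA7 lanes had 12.3, 12.3 and 13.2.

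The miR-17 family, with the seed AAAGUGC, did not pass the test. The joint miR-106a/miR-17 probe had raw counts of 109, 75 and 130 in shPLEKHA7 lanes, against 94 and 80 in NT lanes. Normalized, these were 99.4, 103 and 98.3 in shPLEKHA7, and 119 and 75.2 in NT. The shPLEKHA7 values lay between the NT values. The fold change was log2 0.06 (SE 0.20, edgeR adjusted p = 0.89), and it ran from -0.21 (NT replicate 3 left out) to 0.41 (NT replicate 1 left out).

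The joint miR-20a/miR-20b probe had raw counts of 2397, 1617 and 3129 in shPLEKHA7 lanes, against 1573 and 1902 in NT lanes. Normalized counts were 2186, 2221 and 2366 in shPLEKHA7, and 1994 and 1788 in NT, without overlap. The means were 2258 ± 95.3 in shPLEKHA7 and 1891 ± 146 in NT (SD), and the fold change of log2 0.26 (SE 0.12, edgeR adjusted p = 0.245) did not pass. Its ratio to the joint miR-106a/miR-17 probe, which the same transcripts supply, differed by 0.17 on the log2 scale with overlapping groups, and by -0.079 without NT replicate 1 and 0.43 without NT replicate 3.

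In the miR-18 family, with the seed AAGGUGC, neither probe was called. miR-18a, from the chromosome 13 cluster, had raw counts of 79, 49 and 79 in shPLEKHA7 lanes, against 41 and 61 in NT lanes. Normalized, they were 72.0, 67.3 and 59.7 in shPLEKHA7, and 52.0 and 57.3 in NT. The highest NT value came near the lowest shPLEKHA7 value, and the fold change was log2 0.27 (SE 0.18, edgeR adjusted p = 0.417). miR-18b, from the X chromosome cluster, had raw counts of 27, 15 and 34 in shPLEKHA7 lanes, against 14 and 16 in NT lanes. It exceeded the limit of detection in 3 of 3 shPLEKHA7 lanes and in 1 of 2 NT lanes, so its level in NT replicate 3 was not above background. Its normalized counts were 24.6, 20.6 and 25.7 in shPLEKHA7 and 17.7 and 15.04 in NT, at log2 0.56 (SE 0.28, edgeR adjusted p = 0.253).

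The log2 ratio of miR-18b to miR-18a averaged -1.49 ± 0.25 in shPLEKHA7 and -1.74 ± 0.27 in NT (SD), and the groups overlapped (difference 0.25, 2-sided exact permutation p = 0.4). The difference was 0.44 without NT replicate 1, whose miR-18b count was the 1 above its limit in NT, 0.059 without NT replicate 3, 0.11 without shPLEKHA7 replicate 3 and 0.52 after background subtraction. miR-363, the last product of the X chromosome cluster, had raw counts of 20, 15 and 12 in shPLEKHA7 lanes, against 12 and 18 in NT lanes. Only 1 of these 5 counts exceeded its lane's limit, and the probe was not tested. No other arm of either cluster's hairpins has a probe among those analysed.

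miR-92a, with the seed AUUGCAC, had raw counts of 5869, 3640 and 5772 in shPLEKHA7 lanes, against 3807 and 3973 in NT lanes. Normalized counts were 5352, 5001 and 4364 in shPLEKHA7, and 4825 and 3735 in NT, so the groups overlapped. The means were 4906 ± 501 in shPLEKHA7 and 4280 ± 771 in NT (SD), at log2 0.20 (SE 0.15, edgeR adjusted p = 0.505). The fold change ran from 0.065 (NT replicate 3 left out) to 0.39 (NT replicate 1 left out), with 0.12 when shPLEKHA7 replicate 1 was left out. Its share of the cluster counts was 59.4%, 57.2% and 52.7% in shPLEKHA7 lanes and 61.3% and 54.8% in NT lanes. The log2 ratio of miR-92a to miR-19b differed by -0.18 between groups, with overlap, and its sign rested on 1 lane: it was 0.21 with NT replicate 1 left out and -0.57 with NT replicate 3 left out.

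The direction of the smaller changes depended on how lanes were scaled. Scaled to the spike-ins, 3 of the 7 were above 0, and the median of the 7 was log2 -0.070 against -0.27 over all probes tested. There miR-92a was at -0.16, the joint miR-20a/miR-20b probe at -0.083, miR-18a at -0.070 and the joint miR-106a/miR-17 probe at -0.29, while miR-19b stood at 0.03 and miR-18b at 0.24. miR-19a remained called there, at log2 0.83 (edgeR adjusted p = 0.0436). Under the housekeeping scaling of the deposited table all 7 were above 0, with a median of 0.20.

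**Figure D3:**
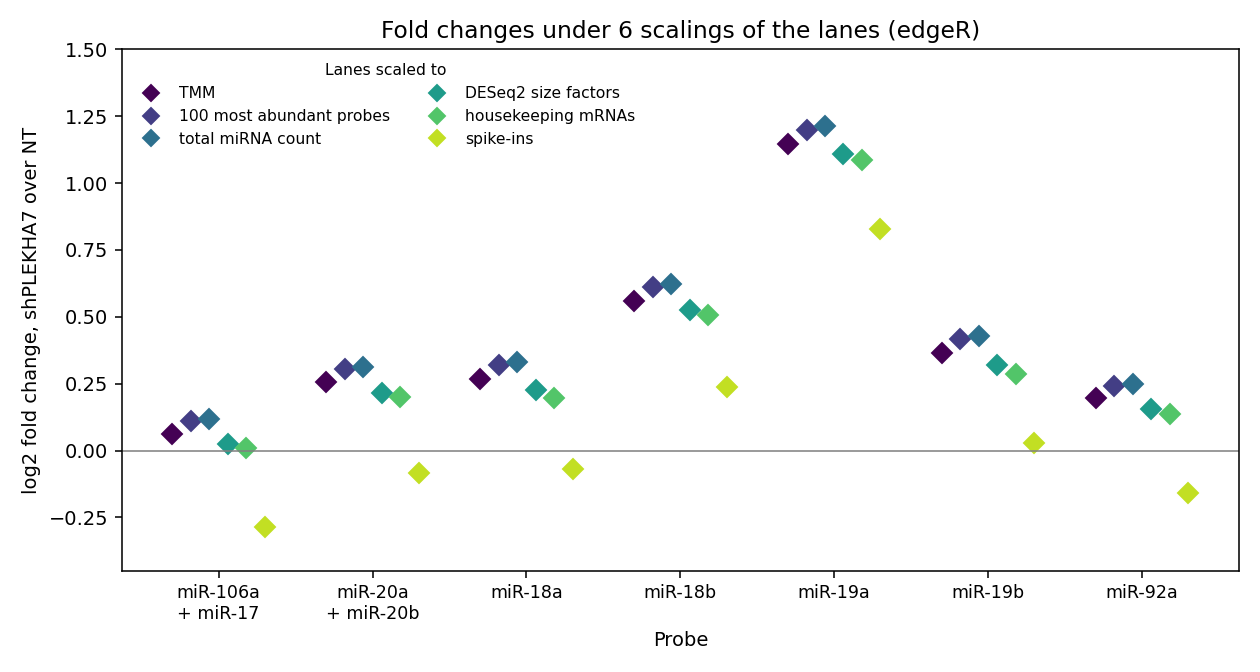
Log2 fold changes of the 7 probes (shPLEKHA7 over NT) from edgeR under 6 ways of scaling the lanes. miR-19a lies between 0.83 and 1.21 under all 6, and spike-in scaling takes 4 of the other 6 probes below 0.

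Other probes with a seed of these clusters were looked up by sequence. Of 654 human probes 557 matched a RefSeq mature sequence, all 7 members among them, and 8 other probes shared a member's seed, none of them the seed of miR-18 or of miR-19. One of the 8 is miR-363 of the X chromosome cluster, and the others come from other loci. Of the 8, 5 were above background and tested, all from other loci, and 0 were called higher and 0 lower (2.45% and 3.92% over all probes). Their median was log2 0.11, with 4 above 0 and 1 below.

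The miR-106b-25 cluster, the third paralog, lies within MCM7 on chromosome 7. miR-106b and miR-93, which carry the miR-17 seed, were at log2 0.06 (SE 0.16) and 0.24 (SE 0.18), and miR-25, which carries the miR-92 seed, was at 0.11 (SE 0.13). All 3 had overlapping groups. miR-92b was at log2 -0.19 (SE 0.28). miR-32, a further miRNA with the miR-92 seed, had normalized counts of 28.3, 39.8 and 49.1 in shPLEKHA7 lanes, against 21.5 and 21.6 in NT lanes, at log2 0.86 (SE 0.29, edgeR adjusted p = 0.115). The raw NT counts of miR-32, 17 and 23, were only a few above the limits of detection of 13.4 and 20.6. Within 1 seed the fold changes thus ran from -0.19 for miR-92b to 0.86 for miR-32, and none of these probes was called. miR-367, miR-519d and miR-363 were not tested.

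**Figure D4:**
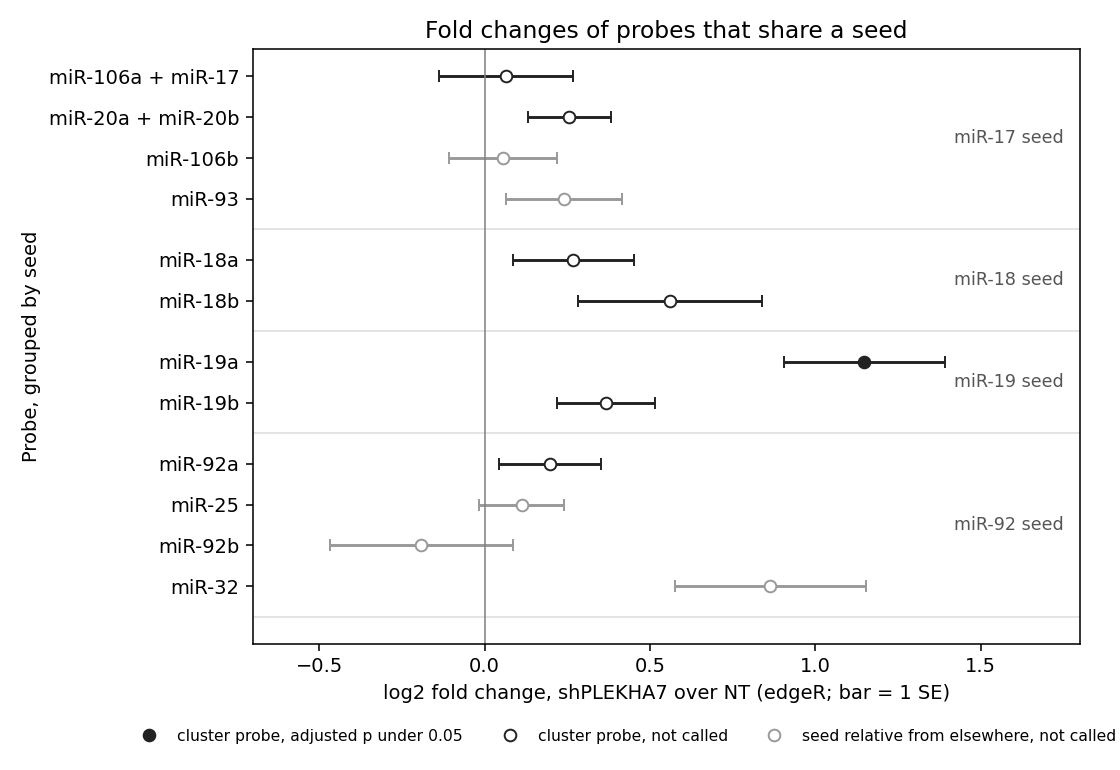
Log2 fold changes (shPLEKHA7 over NT, edgeR, bars of 1 SE) of the cluster probes (black) and of tested probes with the same seed from other loci (grey), grouped by seed. Only miR-19a, at 1.15, is filled as called. miR-92b lies lowest, at -0.19, and miR-32 is the highest grey point, at 0.86.

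MYC, which activates miR-17-92, is also known to repress a set of other miRNAs. Of 20 such miRNAs on the panel 16 were tested, of which 0 rose and 2 fell (2.45% and 3.92% over all probes). The median of the 16 was log2 -0.06, with 6 above 0 and 10 below, against 115 above and 89 below over all probes. The pair that fell was let-7g (log2 -0.65, SE 0.13, edgeR adjusted p = 0.0269) and miR-29a (log2 -0.67, SE 0.15, edgeR adjusted p = 0.0317). let-7g averaged 332 ± 30.6 normalized counts in shPLEKHA7 and 524 ± 35.1 in NT (SD). miR-29a averaged 162 ± 13.6 in shPLEKHA7 and 259 ± 39.9 in NT (SD). MYC itself was not measured.

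How alike the 7 varied over the 5 lanes was described by the root mean square difference between log2 normalized counts, each centred on its mean over the lanes. Among the members the closest pair was the joint miR-106a/miR-17 probe with miR-92a, at 0.14, and the farthest was that joint probe with miR-19a, at 0.65. miR-19a was nearest to miR-19b, at 0.38, which is wider than all 15 distances among the other 6 members (0.14 to 0.37). Of the 197 tested probes outside the clusters, those closest to the mean profile of the members were miR-484 (0.09), miR-619 (0.10) and miR-934 (0.11), at log2 fold changes of 0.46, 0.41 and 0.48, none of them called. The probe closest to miR-19a was miR-302d (0.12), and the probe closest to miR-92a was miR-454 (0.07). miR-302d was called higher (log2 1.13, SE 0.25, edgeR adjusted p = 0.0317). Its normalized counts were 31.9, 33.0 and 34.0 in shPLEKHA7 lanes, against 12.7 and 16.9 in NT lanes. Neither NT count of miR-302d exceeded its lane's limit of detection, so its level in NT was not above background. It thus entered the test through the shPLEKHA7 lanes alone. All these probes were picked for likeness over the same lanes that gave the fold changes. Similar fold changes and calls follow from that choice and are no separate support. The closest to miR-19b was miR-532-5p (0.03), to miR-18a the joint miR-517c and miR-519a probe (0.05), to miR-18b miR-934 (0.11), to the joint miR-20a/miR-20b probe miR-374b (0.08), and to the joint miR-106a/miR-17 probe the joint miR-500 and miR-501-5p probe (0.10).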

How the data were processed

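Total RNA from 5 Caco2 samples was read on the nCounter Human v2 miRNA panel. The authors deposited raw counts for 734 miRNA probes (654 human and 80 viral), with control and mRNA probes, and the exporting software is not given in the sources used here. In their second deposited table, of normalized signal, 100% of human values matched the raw counts times a lane factor (tolerance 0.02), and these factors level 5 housekeeping mRNAs. Its 10 further columns were not used.

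Probes whose counts passed the mean plus 2 SD of the negative controls in 2 or more lanes (204) were tested with edgeR 4.0.16 (quasi-likelihood, TMM, group only, R 4.3.3). SEs were derived from the log2 fold change and the F statistic. Normalized counts are raw counts scaled to the mean TMM library size. Ratios within a lane were compared with exact permutation tests over all splits of the lanes. Their adjusted p and the exact binomial intervals came from scipy 1.17.1. Likeness used edgeR log2 values with a prior count of 2. Members and lists were chosen with earlier results of these data known. Named miRNAs are the members, their seed relatives and cluster neighbours, called miRNAs of the MYC list and the most alike probes. Intestinal, epithelial, blood and stromal markers are also named, as a check of the cell line. Alternatives were other scalings, DESeq2 1.42.0, limma 3.58.1 on the log2 deposited signal (pseudocount 1, human probes), background subtraction, other filters, a replicate block and samples left out. Leaving out shPLEKHA7 replicates 2 and 3 together was chosen after seeing the data. The edgeR script was tested on simulated data.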

Additional observations from a re-analysis of the deposited data

How the results depend on the processing

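miR-19a stayed above 0 under every alternative run, from log2 0.83 (spike-in scaling) to 1.53 (without NT replicate 3), and was called in 10 of 12 other settings with all samples and in 2 of 5 with 1 sample left out. The number of the 7 called higher was 0 with limma on the deposited values, with no filter and without shPLEKHA7 replicates 2 and 3, and 0 to 1 with 1 sample left out. With the replicate block it was 2, since miR-19b was then called (log2 0.37, edgeR adjusted p = 0.0461). The replicate numbers were not taken as pairs, since they are not stated to mark a shared infection set. Deviations of same-numbered samples from their group means correlated at r = 0.04 and 0.16 over 204 probes for replicates 1 and 3. With 2 NT lanes the NT deviations mirror each other, so these values cannot decide whether samples were paired. None was called lower in any setting. The median of the 7, log2 0.27, was 0.20 with housekeeping scaling, 0.20 with limma, 0.10 with no filter, -0.070 with spike-in scaling, 0.34 without shPLEKHA7 replicates 2 and 3, and 0.25 to 0.39 with 1 sample left out. Spike-in scaling turned the joint miR-106a/miR-17 probe to -0.29, miR-18a to -0.070, the joint miR-20a/miR-20b probe to -0.083 and miR-92a to -0.16. No filter turned the joint miR-106a/miR-17 probe to -0.11, and leaving out samples took it from -0.21 to 0.41. The miR-19a to miR-19b difference of 0.80 was 1.10 after background subtraction and 0.70 to 0.88 with 1 sample left out. The difference in share ran from 1.96 to 5.32 points with 1 sample left out, and was 4.38 points after background subtraction. Over all probes 5 higher and 8 lower calls became 4 and 29 with spike-in scaling and 0 and 0 without NT replicate 3. The causes were not tested. Counts of 14 to 34 for miR-18b and of 17 and 34 for miR-19a in NT limit what these lanes show.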
